A study of Mus musculus with 2 samples.

Results

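Gamma-delta T cells were described in CD45+ cells, that is leukocytes and microglia, isolated from spinal cord of mice with experimental autoimmune encephalomyelitis (EAE), in which T cells reactive to myelin inflame the brain and spinal cord. A cell was taken as a gamma-delta T cell when it held at least 2 counts of Cd3d, Cd3e and Cd3g together, at least 1 count of Trdc, and no count of Cd4, Cd8a, Cd8b1, Foxp3 or Ncr1. The cells were thus selected on measured counts of these 9 genes, and they numbered 473 of 20504: 68 and 70 in the inhibitor-treated mice and 160 and 175 in the untreated mice (replicates 1 and 2 of each group). Values given mouse by mouse keep that order. The study held 4 C57BL/6 mice, all with induced EAE and all sampled at day 15: 2 received an inhibitor and 2 received none. The labels used here give neither the inhibitor's name, target, dose or schedule nor the sex or age of the mice. Each mouse carried its own antibody hashtag and all 4 were pooled on 1 BD Rhapsody run. By the labels, each replicate is its own mouse. Genes that chose the cells are not findings. The comparators were 3063 CD4 T cells and 1018 CD8 T cells, each gated without Trdc.

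T cells carry an antigen receptor made of an alpha and a beta chain or of a gamma and a delta chain. In mice, Trdc encodes the constant part of the delta chain, and Trgc1 to Trgc4 encode constant parts of the gamma chain. Many gamma-delta T cells leave the mouse thymus already set to make either interleukin-17A or interferon-gamma. In EAE they are known as an early source of interleukin-17A, which they release in response to interleukin-1 and interleukin-23 without prior priming by a myelin antigen.

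The gamma constant segments lie close together on chromosome 13, and Trgc1, Trgc2 and Trgc3 are near-copies of each other, which bears on how their counts are read. Of the coding sequence, Trgc1 and Trgc2 share 97.4% of aligned bases, Trgc1 and Trgc3 share 96.9%, and Trgc1 and Trgc4 share 77.3%. The same 150-base stretch of the first constant exon is shown for the 4 segments, in GRCm38 with GENCODE M21 gene models. Capitals in Trgc1 mark bases at which Trgc2 or Trgc3 differ from it, and capitals in the other segments mark bases that differ from Trgc1.
Trgc1, plus strand, chr13:19214203-19214352: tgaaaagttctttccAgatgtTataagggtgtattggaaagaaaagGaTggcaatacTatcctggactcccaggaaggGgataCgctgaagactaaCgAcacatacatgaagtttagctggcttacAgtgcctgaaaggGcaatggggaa
Trgc2, minus strand, chr13:19307302-19307451: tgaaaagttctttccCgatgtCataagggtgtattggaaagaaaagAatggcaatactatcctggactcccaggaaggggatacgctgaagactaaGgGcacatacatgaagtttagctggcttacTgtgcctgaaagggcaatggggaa
Trgc3, plus strand, chr13:19260985-19261134: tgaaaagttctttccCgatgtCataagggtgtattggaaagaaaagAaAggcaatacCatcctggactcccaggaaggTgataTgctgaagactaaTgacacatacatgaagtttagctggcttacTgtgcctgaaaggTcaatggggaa
Trgc4, plus strand, chr13:19344658-19344807: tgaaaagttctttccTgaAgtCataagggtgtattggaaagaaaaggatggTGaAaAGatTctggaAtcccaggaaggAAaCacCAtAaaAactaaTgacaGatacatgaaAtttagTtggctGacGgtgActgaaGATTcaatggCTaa
In this stretch Trgc2 differed from Trgc1 at 6 bases, Trgc3 at 10 and Trgc4 at 30. A read from one of the first 3 segments can therefore match another nearly as well, and the labels do not say how the authors' counting divided such reads. Both Trgc1 and Trgc2 had counts in 168 of the 473 cells, and the split between them is uncertain for that reason.

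The Trdc gene lies at chr14:54142851-54148868, plus strand. Most of the selected cells also held transcripts of the other receptor chain. At least 1 gamma constant segment was counted in 381 of 473 cells (80.5%, 95% Wilson interval 76.7% to 83.9%). By mouse the share was 75.0% and 68.6% in inhibitor-treated mice and 83.1% and 85.1% in untreated mice. Trac, the alpha-chain constant gene, was counted in 35.1% of the cells, and Trac, Trbc1 or Trbc2 in 90.7%. Trac without any gamma constant segment was found in 37 cells (7.82%). Intervals here cover counting error only. The gate may thus hold some alpha-beta T cells, and their share was not tested. Trbc1 and Trbc2 were counted more often in cells with 5 or more Trdc counts than in T cells with none (values below). A count of either gene therefore does not by itself mark an alpha-beta T cell here.

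A Trdc count of 1 was enough for selection, and 75 of the 473 cells (15.9%) held exactly 1. Among these 75 cells just inside the threshold, Trgc1 was counted in 25.3%, the gamma-delta marker gene 5830411N06Rik in 30.7% and Trac in 44%. Among the 3017 otherwise identical T cells just outside it, with no Trdc count, the shares were 3.48% for Trgc1, 3.08% for 5830411N06Rik and 58.6% for Trac. Among the 304 cells with 5 or more Trdc counts they were 64.5% for Trgc1, 57.6% for 5830411N06Rik and 33.6% for Trac. Cells at the threshold thus lay between both groups for these 3 genes. This was not so for the beta-chain constant genes. Trbc1 was counted in 45.8% of cells with no Trdc count, 41.3% with 1 and 63.8% with 5 or more. For Trbc2 the shares were 68.4%, 68.0% and 82.9% in that order. Trdc itself was counted in 102 of 6417 neutrophils (1.59%) and 18 of 824 B-lineage cells (2.18%), which should lack it. It was also counted in 131 of 3194 T cells with Cd4 (4.10%) and in 39 of 264 natural killer (NK) cells (14.8%). Median counts per cell were 8732 in neutrophils, 6268 in B-lineage cells, 9581 in T cells with Cd4 and 9282 in NK cells, and 7664 to 8793 over the 4 mice in gamma-delta T cells.

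The receptor segments other than Trdc were compared with CD4 and CD8 T cells on counts summed per mouse and cell type, with edgeR's quasi-likelihood test, mouse as a block and Benjamini-Hochberg adjustment. Across all genes, 79 of 11715 tested genes (0.674%) were higher in gamma-delta than in CD4 T cells and 45 (0.384%) were lower, at an adjusted p under 0.05. Against CD8 T cells, 108 of 11055 (0.977%) were higher and 56 (0.507%) lower. These counts depended on single mice. Against CD4 T cells the total of 124 was 65 without inhibitor replicate 1 and 61 without untreated replicate 1. Against CD8 T cells the total of 164 was 51 without inhibitor replicate 1, 41 without untreated replicate 1, 41 without untreated replicate 2 and 291 without inhibitor replicate 2. Both comparisons use the same gamma-delta T cells. Removing cells with Trac, Trbc1 or Trbc2 left 44 gamma-delta T cells. This is not a test of purity, since Trbc2 was counted in 82.9% of the 304 cells with 5 or more Trdc counts. Of the 55 genes reported against CD4 T cells, 22 then kept their calls, 19 lost them and 4 changed sign (Il23r, Gzmb, Tmem176a and Actn2). Of the 71 reported against CD8 T cells, 19 kept their calls, 32 lost them and 7 changed sign, among them Ccr2, Cxcr6 and Cd69. The remaining reported genes were not tested there. In that setting the median log2 fold over all genes was itself −0.87 against CD4 and −0.77 against CD8 T cells. The 4 genes that changed sign against CD4 T cells, at −0.46 to −0.25, lay above this median. Against CD8 T cells Ccr2, Cxcr6, Cd69, Maf and Ckb, at −0.55 to −0.25, lay above it, while Zap70 and Il27ra lay below it.

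Of 20 gamma and delta segments outside the selection rule, 8 passed the filter on low counts in each comparison, and all 8 were higher in gamma-delta T cells (median log2 fold 7.21 against CD4 and 4.82 against CD8 T cells, with −0.05 over all genes in both). A segment counted almost only in gamma-delta T cells could pass the filter only by being high there, so this count is a description. Trgc1 had 323 and 312 CPM (counts of the gene scaled to a total of 1000000) in gamma-delta T cells of inhibitor-treated mice and 417 and 452 CPM in those of untreated mice, against 1.92, 3.40, 4.40 and 6.39 CPM in CD4 T cells. The groups did not overlap, and the log2 fold was 6.60 ± 0.22 (SE). Trgc1 was named as a marker with results of these data known, so its values too are a description. Trgc4 had 172 and 207 CPM in inhibitor-treated and 243 and 245 CPM in untreated mice, against at most 2.76 CPM in CD4 T cells. Its log2 fold was 8.07 ± 0.50. Trgc2 had 227, 146, 358 and 413 CPM, and its level was lower in both inhibitor-treated than in both untreated mice. In CD8 T cells the 3 segments had 8.03 to 15.2 CPM (Trgc1), 9.0 to 22.7 CPM (Trgc2) and 5.58 to 23.1 CPM (Trgc4). No segment passed between inhibitor-treated and untreated mice. The variable segments were sparse. Trgv2, a gamma variable segment, was present in 13 of 68 and 6 of 70 cells in inhibitor-treated mice and in 43 of 160 and 39 of 175 cells in untreated mice.

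Trdv4 (chr14:54074905-54075515, plus strand) and Trgv6 encode, in mice, the receptor pair of an innate-like population known from barrier tissues that makes interleukin-17A. Trdv4 had 58 counts in 22 gamma-delta T cells and 0 in CD4 T cells, at least 151-fold higher against a floor of 3 counts over all CD4 T cells, and at least 55.9-fold higher against CD8 T cells. The 22 cells were spread unevenly: 2 and 12 in inhibitor-treated mice and 2 and 6 in untreated mice. Inhibitor replicate 2 therefore held more of them than the other 3 mice together. Trdv4 was also counted in 16 of 264 NK cells (6.06%). Trgv6 was counted in 5 gamma-delta T cells. Trgv4, used in mice by another interleukin-17A-making population, was counted in 26 cells (5.5%), at 10, 11.7, 12.5 and 11.6 CPM. It had 4 counts in all CD4 T cells.

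A pair of neighbouring genes divided the gamma-delta T cells. The genes 5830411N06Rik (chr7:140247284-140300736) and Cd163l1 (chr7:140218267-140231145), both on the plus strand, encode scavenger receptors with cysteine-rich domains that in mice mark gamma-delta T cells able to make interleukin-17A. They stand 16138 bases apart with 0 annotated genes between them and share 69.8% of 2945 aligned coding bases. The grouping was chosen after their values were seen and is given without a test. Of the 473 cells, 216 (45.7%) had 5830411N06Rik only, 54 (11.4%) had Cd163l1 only, 28 (5.92%) had both and 175 (37.0%) had neither. The mice differed within the inhibitor-treated group. The share with 5830411N06Rik only was 50% and 15.7% in inhibitor-treated and 49.4% and 52.6% in untreated mice. The share with Cd163l1 only was 10.3% and 32.9% in inhibitor-treated and 5.0% and 9.14% in untreated mice. Inhibitor replicate 2 was thus low for the first gene and high for the second, while inhibitor replicate 1 lay close to the untreated mice.

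**Figure D1:**
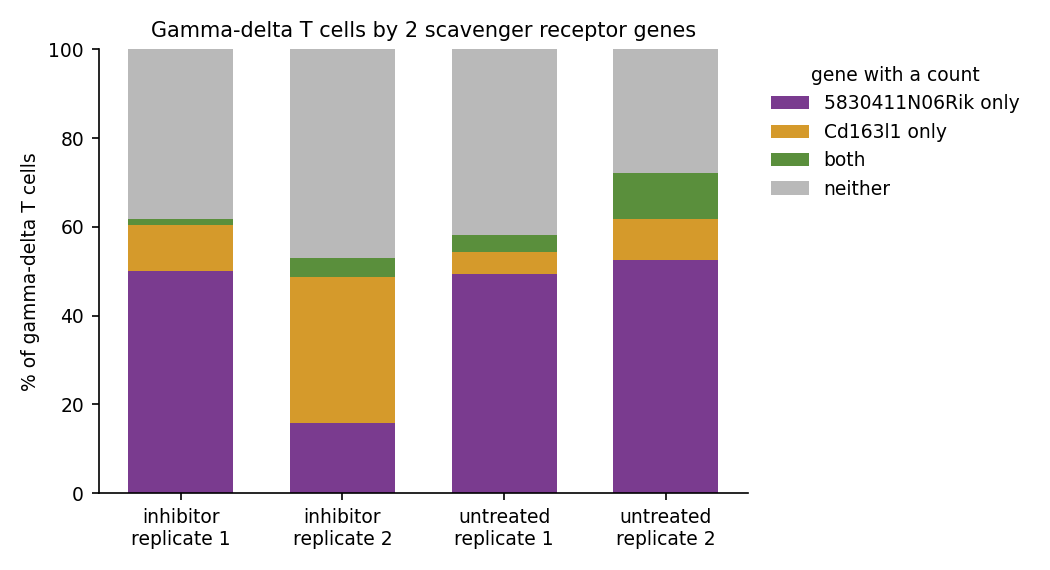
Share of gamma-delta T cells (percent, vertical axis) with counts of 5830411N06Rik only, Cd163l1 only, both or neither, stacked for each of the 4 mice. Inhibitor replicate 2 had 15.7% with 5830411N06Rik only, against 50% in inhibitor replicate 1 and 49.4% and 52.6% in the untreated mice.

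Il17a, which encodes interleukin-17A (chr1:20730905-20734496, plus strand), was counted in 67 of the 216 cells with 5830411N06Rik only (31.0%), 22 of the 54 with Cd163l1 only (40.7%), 10 of the 28 with both and 11 of the 175 with neither (6.29%). By mouse the share was 32.4% and 36.4% of 5830411N06Rik-only cells in inhibitor-treated mice and 31.6% and 29.3% in untreated mice. In Cd163l1-only cells it was 28.6%, 43.5%, 25% and 50%, and in cells with neither gene 3.85%, 6.06%, 7.46% and 6.12%. The share in cells with neither gene was the lowest of these 3 in each mouse, while the order of the other 2 differed between mice. Transcripts of the type 17 programme were concentrated in the cells with either receptor gene. Il23r, the interleukin-23 receptor gene, had 70.5 CPM in 5830411N06Rik-only cells, 133 CPM in Cd163l1-only cells and 3.87 CPM in cells with neither. Sox13, a transcription factor of interleukin-17A-making gamma-delta T cells, had 86.2, 121 and 6.29 CPM in the same order, and Blk, a Src-family kinase gene, had 334, 586 and 25.7 CPM. Il7r, the interleukin-7 receptor gene, had 1314, 1187 and 322 CPM, and S100a4 had 2619, 2589 and 580 CPM. All 5 genes were lower in cells with neither gene than in 5830411N06Rik-only cells in each mouse. These levels are summed over mice, and inhibitor replicate 2 gave 23 of the 54 Cd163l1-only cells but 11 of the 216 5830411N06Rik-only cells. The order of those 2 groups differed between mice. Blk had 174 and 508 CPM in Cd163l1-only cells of inhibitor-treated mice and 904 and 732 CPM in those of untreated mice, against 454, 580, 263 and 324 CPM in 5830411N06Rik-only cells. Il23r was higher in the Cd163l1-only cells of 3 mice and lower in those of inhibitor replicate 2, and Sox13 was higher in those of the replicate 2 mice and lower in those of the replicate 1 mice.

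The cells with neither gene carried cytotoxic and type 1 transcripts instead. Nkg7, a cytotoxic granule protein gene, had 744 CPM in them, against 80.0 CPM in 5830411N06Rik-only and 14.5 CPM in Cd163l1-only cells. Xcl1, a chemokine gene, had 594, 28.6 and 2.42 CPM in that order, and Ly6c2 had 1417, 134 and 79.9 CPM. Klra7 and Klrd1, receptor genes shared with NK cells, had 141 and 251 CPM, against at most 12.4 CPM in the other 2 groups. Ifng, which encodes interferon-gamma, was counted in 34.9% of these cells, against 16.7% of 5830411N06Rik-only and 9.26% of Cd163l1-only cells. Its share in the cells with neither gene was 34.6% and 24.2% in inhibitor-treated mice and 41.8% and 32.7% in untreated mice, against 11.8%, 27.3%, 20.3% and 14.1% of 5830411N06Rik-only cells, so inhibitor replicate 2 had the other order. In CPM the order was the other one in inhibitor replicate 1, with 88.4 CPM in cells with neither gene and 133 CPM in 5830411N06Rik-only cells. Nkg7, Xcl1, Ly6c2, Klra7 and Klrd1 were higher in the cells with neither gene than in the other 2 groups in each mouse. This group also held the least certain members: 27.4% had a single Trdc count and 61.1% had a gamma constant segment. In the 5830411N06Rik-only cells those shares were 8.8% and 92.6%. S100a9, a neutrophil gene, was counted in 14 of the 175 cells with neither gene, at 13946 CPM. It had 1293 CPM in 5830411N06Rik-only and 2545 CPM in Cd163l1-only cells, from 2 cells in each. How far other T cells in the gate, or RNA of other cell types, bear on the values of the group with neither gene was not tested.

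All 22 cells with Trdv4 had Cd163l1, 20 of them without 5830411N06Rik. Trdv4 had 133 CPM in Cd163l1-only cells and 0 CPM in the 5830411N06Rik-only cells and in those with neither. Trgv6 followed it, with 12.1 CPM in Cd163l1-only cells and 0 CPM in both others. Of 110 cells with Il17a and 104 with Ifng, 12 had both. If the 2 genes were counted independently of each other, 24.2 cells would have both, and the difference was not tested.

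**Figure D2:**
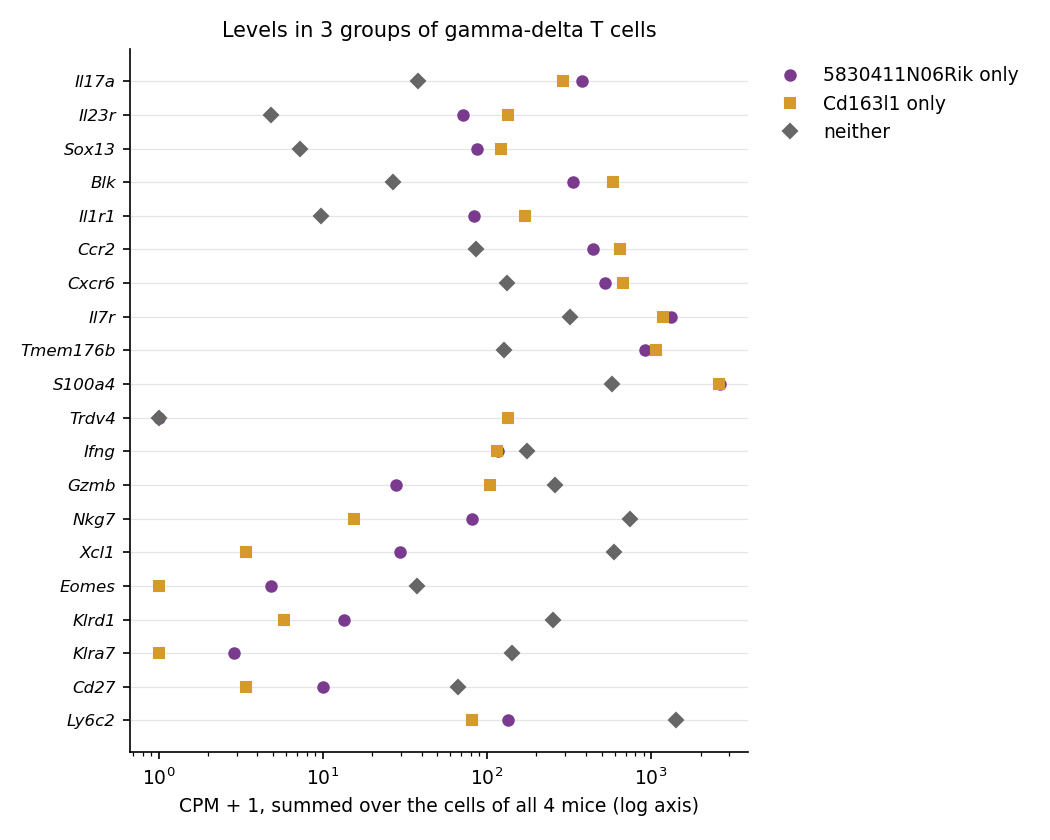
Level (CPM + 1, log axis) of 20 genes in gamma-delta T cells with 5830411N06Rik only, Cd163l1 only or neither, each summed over 4 mice. Il23r, Sox13 and Blk were lowest in cells with neither gene, and Nkg7, Xcl1 and Ly6c2 were highest in them.

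Compared with CD4 T cells, gamma-delta T cells had higher levels of many type 17 genes. Of 39 tested genes of this list, 14 were higher and 1 was lower (median log2 fold 0.76). Of the 14, 10 were called with any 1 mouse left out. Il17a had 170 and 123 CPM in gamma-delta T cells of inhibitor-treated mice and 204 and 369 CPM in those of untreated mice. CD4 T cells had 27.3, 103, 28.8 and 93.5 CPM. Every gamma-delta value was above every CD4 value, and the highest CD4 values were those of the replicate 2 mice. The log2 fold was 2.00 ± 0.37 (adjusted p = 0.0402, edgeR quasi-likelihood test with Benjamini-Hochberg adjustment). The call was lost without inhibitor replicate 1 (adjusted p = 0.251), untreated replicate 1 (0.227) or untreated replicate 2 (0.126), and without the mouse block (0.115). 5830411N06Rik had 564, 290, 744 and 936 CPM, against 1.68, 6.38, 4.71 and 12.2 CPM in CD4 T cells (log2 fold 6.71 ± 0.40, adjusted p = 3.93e-05, edgeR). This gene and Il17a were named as markers with results of these data known, so neither test is independent support. The type 17 list was also chosen with earlier results known, so its counts of genes against CD4 and CD8 T cells are a description.

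Several receptors and regulators of the programme were also higher than in CD4 T cells. Blk had 235, 221, 170 and 279 CPM, against 0.479 to 4.24 CPM in CD4 T cells (log2 fold 6.46 ± 0.33, adjusted p = 2.03e-05, edgeR). Sox13 had 60.1, 44.5, 44.5 and 59.3 CPM, against at most 0.555 CPM (log2 fold 7.99 ± 0.63). Il7r had 629, 658, 896 and 1080 CPM, against 287 to 372 CPM in CD4 T cells (log2 fold 1.30 ± 0.12). It was higher in gamma-delta T cells of every mouse, and within gamma-delta T cells it was lower in both inhibitor-treated mice than in both untreated mice. Il23r had 8.58, 55.0, 67.1 and 43.4 CPM, against 2.88 to 6.38 CPM (log2 fold 3.03 ± 0.39, adjusted p = 0.00514, edgeR). It was low in inhibitor replicate 1, and the call was lost without untreated replicate 1 (adjusted p = 0.0718). Cd163l1, Kcnk1, Jaml, Tmem176a, Tmem176b and Serpinb1a were also higher, with log2 folds of 4.14, 6.06, 2.10, 1.34, 1.64 and 1.18, and kept their calls with any 1 mouse left out. The member that was lower was Tnfsf11, the gene of the cytokine RANKL (log2 fold −2.03 ± 0.31, adjusted p = 0.0149, edgeR), and its call was lost without inhibitor replicate 1 (adjusted p = 0.0575), inhibitor replicate 2 (0.0511) or untreated replicate 1 (0.135). Ccr2 and Cxcr6, chemokine receptor genes of the homing list, had 272 to 355 CPM and 290 to 457 CPM in gamma-delta T cells, against 246 to 321 CPM and 326 to 484 CPM in CD4 T cells. None of the 21 tested homing and adhesion genes passed.

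Genes shared with NK cells made a second group above CD4 T cells. Of 28 tested type 1 and cytotoxic genes, 5 were higher (Xcl1, Gzmb, Klrk1, Klrb1c and Klrd1) and 1, Ifng, was lower (median log2 fold 0.43). Xcl1 had 303, 241, 297 and 226 CPM, against 21.1, 15.8, 59 and 11.4 CPM in CD4 T cells (log2 fold 3.65 ± 0.31, adjusted p = 0.000465, edgeR). Klrk1, which encodes the activating receptor NKG2D, had 88.7 to 121 CPM against 16.1 to 39.5 CPM (log2 fold 2.00 ± 0.21). Gzmb, the granzyme B gene, had 106, 101, 219 and 70.9 CPM against 18.8 to 34.6 CPM (log2 fold 2.25 ± 0.34), and its call was lost without inhibitor replicate 1 (adjusted p = 0.0893, edgeR). Klrb1c lost its call without either inhibitor-treated mouse or untreated replicate 1 (adjusted p = 0.0709 to 0.171, edgeR), and Klrd1 without any 1 of the 4 mice (adjusted p = 0.0795 to 0.296, edgeR). Ifng had 117, 125, 156 and 128 CPM, against 270, 362, 384 and 280 CPM in CD4 T cells. The ranges did not overlap (log2 fold −1.23 ± 0.13, adjusted p = 0.00171, edgeR), and the call held with any 1 mouse left out. Cd7, Irs2 and Abi3bp, named for the size of their difference, had log2 folds of 2.65, 2.49 and 6.82. Abi3bp, which encodes an extracellular matrix-binding protein, had 45.8 and 44.5 CPM in inhibitor-treated and 134 and 213 CPM in untreated mice, against at most 1.68 CPM in CD4 T cells.

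Genes lower in gamma-delta than in CD4 T cells included those of the alpha-beta receptor, its signalling and T-cell help. All 3 alpha-beta constant genes were lower. Trac had 149, 151, 151 and 207 CPM, against 769 to 918 CPM in CD4 T cells (log2 fold −2.28 ± 0.13, adjusted p = 3.55e-05, edgeR). Trbc2 differed less, with 555 to 934 CPM against 1366 to 1696 CPM (log2 fold −0.93 ± 0.11). Of 15 tested receptor signalling genes, 5 were lower and none was higher (median log2 fold −0.57). These were Cd5, Cd6, Cd28, Lck and Themis, with log2 folds of −3.12, −2.83, −2.26, −1.31 and −2.32. Themis lost its call without inhibitor replicate 2 or either untreated mouse (adjusted p = 0.0626 to 0.107, edgeR), as did Trbc1 without either inhibitor-treated mouse or untreated replicate 1 (adjusted p = 0.105 to 0.244, edgeR). Cd5 and Cd6 encode receptors that tune signalling, Cd28 the main co-stimulatory receptor, and Lck the kinase that starts the signal. Lck had 152, 158, 205 and 242 CPM against 459 to 515 CPM. Cd40lg, through which helper T cells activate B cells, had 10, 11.7, 9.5 and 18.3 CPM against 101 to 119 CPM (log2 fold −3.06 ± 0.25, adjusted p = 0.000363, edgeR). Tnfrsf4, a co-stimulatory receptor gene, had 10.5 to 44.6 CPM against 128 to 146 CPM, with its call lost without untreated replicate 1 (adjusted p = 0.0809, edgeR). Lag3, an inhibitory receptor gene, had 30 to 61.1 CPM against 90.1 to 154 CPM. Of 9 tested dendritic-cell genes, 4 were lower, among them Cd74, H2-Ab1 and H2-Eb1, which present antigen on dendritic and B cells. Cd74 lost its call without inhibitor replicate 1 (adjusted p = 0.0575, edgeR) and without the mouse block (0.204). Cell cycle (25 tested) and ribosomal genes (30 tested) held no call in either direction.

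**Figure D3:**
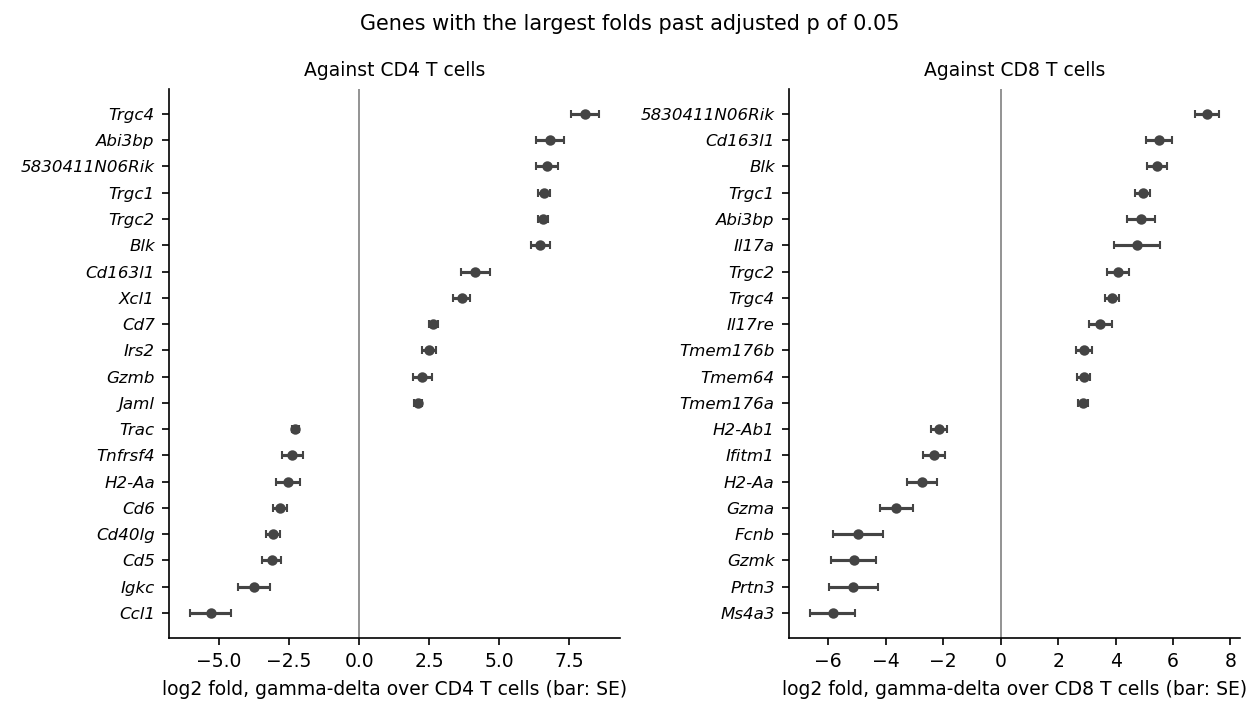
Log2 fold of gamma-delta over CD4 T cells (left) and over CD8 T cells (right) for the genes with the largest differences, points with ± 1 SE derived from edgeR's test statistic. In both panels the receptor segments, 5830411N06Rik and Blk lie among the highest, with Trgc1 at 6.60 over CD4 and 4.94 over CD8 T cells.

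Against CD8 T cells, every type 17 gene that was called was higher in gamma-delta T cells. Of 38 tested type 17 genes, 23 were higher and none lower (median log2 fold 2.16), of which 8 kept the call with any 1 mouse left out. Il17a had 170, 123, 204 and 369 CPM, against 0.744, 34.2, 1.12 and 14.5 CPM in CD8 T cells. The groups did not overlap (log2 fold 4.75 ± 0.79, adjusted p = 0.0243, edgeR), but the call was lost without inhibitor replicate 1 (adjusted p = 0.094), untreated replicate 1 (0.109) or untreated replicate 2 (0.129). Il7r had 629 to 1080 CPM against 121 to 214 CPM (log2 fold 2.16 ± 0.14, adjusted p = 7.33e-05, edgeR). Il17re, which encodes a receptor chain for interleukin-17C, had 87.2, 96.0, 104 and 166 CPM against 4.27 to 20.1 CPM (log2 fold 3.47 ± 0.39). Tmem176a and Tmem176b, membrane protein genes of type 17 lymphocytes, had log2 folds of 2.87 and 2.90. Tmem64 had 121 to 182 CPM against 16.7 to 23.8 CPM (log2 fold 2.89 ± 0.22). Csf2, the gene of the cytokine GM-CSF, had 7.15, 12.9, 12.5 and 15.9 CPM against 0 to 1.57 CPM (log2 fold 4.10 ± 0.75, adjusted p = 0.0332, edgeR), lost without inhibitor replicate 1 (0.094) or either untreated mouse (0.221 and 0.223). S100a4, a calcium-binding protein gene of effector T cells, had 1626, 1264, 1811 and 1963 CPM against 497 to 737 CPM (log2 fold 1.57 ± 0.18). Of 20 tested homing genes, 4 were higher: Ccr2, Cxcr6, Itgb7 and Cd69, at log2 folds of 0.90 to 1.21. None of these 4 kept the call without untreated replicate 1 or without untreated replicate 2 (adjusted p = 0.116 to 0.229, edgeR), and Cxcr6, Itgb7 and Cd69 also lost theirs without inhibitor replicate 1 (0.094 to 0.177).

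**Figure D4:**
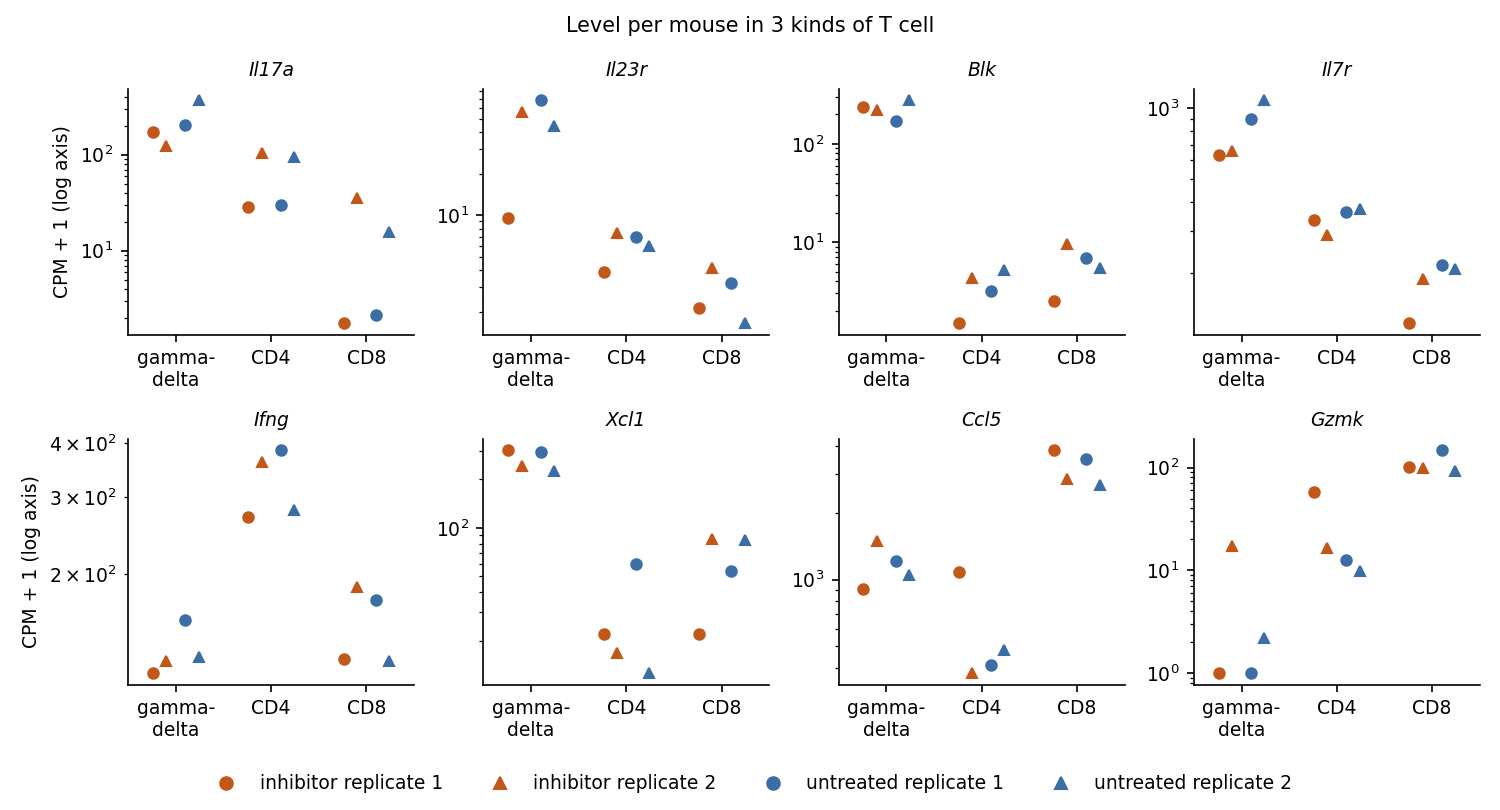
Level (CPM + 1, log axis) of 8 genes in gamma-delta, CD4 and CD8 T cells, with 1 point per mouse (circles replicate 1, triangles replicate 2, orange inhibitor-treated, blue untreated). Il17a, Il23r and Il7r were highest in gamma-delta T cells, and Ccl5 and Gzmk were highest in CD8 T cells.

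The cytotoxic genes gave the opposite picture against CD8 T cells. Of 28 tested type 1 and cytotoxic genes, 8 were lower and 1, Xcl1, was higher (median log2 fold −0.75). Of the 8, Nkg7 and Ccl5 kept the call with any 1 mouse left out. Ccl4, Ly6c2, Hopx and Fcgr3 lost theirs without inhibitor replicate 1 or either untreated mouse (adjusted p = 0.0749 to 0.251, edgeR), and Xcl1 without untreated replicate 1 (0.129). Nkg7 had 303, 486, 410 and 244 CPM, against 762 to 1139 CPM in CD8 T cells (log2 fold −1.47 ± 0.13, adjusted p = 0.000722, edgeR). Ccl5, a chemokine gene of cytotoxic T cells, had 908, 1496, 1209 and 1049 CPM against 2670 to 3834 CPM (log2 fold −1.48 ± 0.17, adjusted p = 0.00327, edgeR). Ccl5 and Gzma, like H2-Ab1, H2-Eb1, Ms4a3, Fcnb, Chil3, S100a9 and Cst3, belong to 44 genes that have no count of 1 to 3 in any cell of the deposited matrix. The smallest value above 0 was 5 for Ccl5, 6 for Gzma, 7 for Chil3 and 112 for S100a9, so a 0 for them may be a small value removed by the authors' processing. Gzma, the granzyme A gene, had 80.1, 124, 23.1 and 4.28 CPM against 417 to 596 CPM (log2 fold −3.63 ± 0.57), lost without inhibitor replicate 1 (adjusted p = 0.0724, edgeR) or untreated replicate 1 (0.126). Gzmk, the granzyme K gene, had 0, 16.4, 0 and 1.22 CPM against 91.2 to 147 CPM (log2 fold −5.11 ± 0.78, adjusted p = 0.0153, edgeR). Without inhibitor replicate 1, untreated replicate 1 or untreated replicate 2 its adjusted p was 0.0669, 0.0636 and 0.0796. Ifng, at 117 to 156 CPM in gamma-delta T cells, did not pass against CD8 T cells. Of the genes with the largest negative differences, Ms4a3, Prtn3 and Fcnb are known from granulocyte precursors. CD8 T cells had 15.3 to 169 CPM of Ms4a3 and 21.1 to 1358 CPM of Prtn3. Beside them, all 13 tested neutrophil markers had negative log2 folds (median −1.19) and none passed. All 14 tested microglia and macrophage markers were negative (median −1.27) with 2 called, P2ry12 and Fn1, neither of which kept the call in all 4 runs that left out 1 mouse, and all 8 tested dendritic-cell markers were negative (median −1.62) with 4 called. The part of RNA from other cells in these differences was not tested. With DESeq2 and its own size factors, 225 genes were higher and 234 lower than in CD8 T cells, a more even split than edgeR's 108 and 56.

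Gamma-delta T cells held a larger share of the T cells' Il17a counts than their own share of T cells. Il17a was counted in 110 of 473 gamma-delta T cells (23.3%, 95% Wilson interval 19.7% to 27.3%). The share was 9.11% of CD4 and 2.95% of CD8 T cells, against 0.485% of B-lineage cells and 0.826% of neutrophils, which should lack it. By mouse the gamma-delta share was 20.6% and 22.9% in inhibitor-treated and 21.9% and 25.7% in untreated mice. With each cell thinned to 3000 counts, which left out 1, 3, 7 and 14 shallower gamma-delta T cells of the 4 mice, the mean over mice was 19.0%, against 22.8% before thinning. Gamma-delta T cells held 20.4% and 5.81% of all Il17a counts in T cells of inhibitor-treated mice and 35.0% and 17.2% in untreated mice, while making up 4.63% and 3.16%, and 6.5% and 5.82%, of the T cells. Their share of Il17a counts exceeded their share of T cells in all 4 mice, and both replicate 2 mice were lower than the replicate 1 mouse of their group. The same held for the other T cells that fell in none of the named gates, which had 32.0%, 14.2%, 25.1% and 26.7% of the Il17a counts and were 7.01%, 10.8%, 11.6% and 12.4% of the T cells. For Il17f, another cytokine gene of the programme, it held in the untreated mice but not in the inhibitor-treated mice. Gamma-delta T cells had 1.04% and 1.88% of its counts in inhibitor-treated mice and 11.8% and 6.69% in untreated mice. These shares rest on few counts: 2 of 193, 3 of 160, 23 of 195 and 17 of 254. Regulatory T cells, gated by Foxp3, held 72.0% of the Il17f counts in inhibitor replicate 1. T cells with neither Trdc, Cd4 nor Cd8 genes held 69.4% in inhibitor replicate 2. For Il22 gamma-delta T cells had 2.38%, 3.83%, 2.32% and 5.35%, below their share of T cells in 3 of 4 mice. For Ifng the share of T-cell counts was 2.76%, 1.43%, 3.58% and 2.48%, below the share of T cells in every mouse. Ifng was counted in 22.0% of gamma-delta T cells, 39.9% of CD4 and 33.6% of CD8 T cells, against 3.64% of B-lineage cells and 3.85% of neutrophils.

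Gamma-delta T cells made up a smaller share of CD45+ cells in inhibitor-treated mice. They were 1.2% (95% Wilson interval 0.95% to 1.52%) and 1.35% (1.07% to 1.71%) of cells in inhibitor-treated mice, against 3.39% (2.91% to 3.94%) and 3.53% (3.05% to 4.08%) in untreated mice. The means were 1.28% ± 0.107 in inhibitor-treated and 3.46% ± 0.101 in untreated mice (SD, n = 2 each), and the groups did not overlap. Fitted over 11 cell gates with edgeR's quasi-likelihood test, the log2 fold was −1.44 ± 0.452 (adjusted p = 0.0334). With 2 mice a group, an exact two-sided permutation test cannot give a p under 0.333, which is the value found. Of the 11 gates, 2 (18.2%) passed. The other was the neutrophil gate, which was 43.2% ± 15.9 in inhibitor-treated and 17.5% ± 2.89 in untreated mice (SD, n = 2 each, log2 fold 1.31). Shares must sum to the whole, and without the neutrophil, B-lineage and progenitor gates in the denominator the gamma-delta log2 fold was −0.78 (adjusted p = 0.173, edgeR). Without cells holding Trac, Trbc1 or Trbc2 it was −0.43 (adjusted p = 0.479, edgeR). The call was also lost without inhibitor replicate 1 (−1.35, adjusted p = 0.0707), untreated replicate 1 (−1.46, adjusted p = 0.218) or untreated replicate 2 (−1.40, adjusted p = 0.459).

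Within T cells the log2 fold of the share was closer to 0. Gamma-delta T cells were 4.63% and 3.16% of T cells in inhibitor-treated mice, against 6.5% and 5.82% in untreated mice (3.89% ± 1.04 and 6.16% ± 0.481, SD, n = 2 each). The ranges did not overlap, but the test did not pass (log2 fold −0.68 ± 0.298, adjusted p = 0.252, edgeR), and 0 of 6 T-cell gates (0%) did. Without adjustment over the gates, edgeR's p for this share was 0.042, and the exact permutation p was 0.333. When cells with any Trac, Trbc1 or Trbc2 count were removed, which left 44 gamma-delta T cells, the log2 fold of this share was 0.31 (adjusted p = 0.565, edgeR). The absolute number of cells per cord is not given, so a lower share and a smaller number cannot be told apart.

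**Figure D5:**
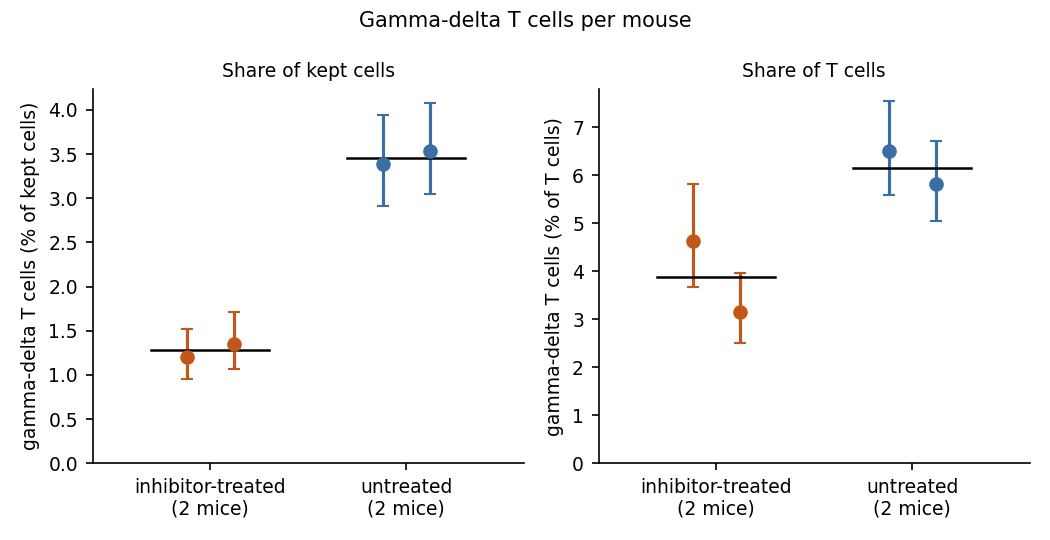
Gamma-delta T cells as a percent of all kept cells (left) and of T cells (right), 1 point per mouse with its 95% Wilson interval and a line at each group mean. The 2 inhibitor-treated mice lie at 1.2% and 1.35% of cells, below the untreated mice at 3.39% and 3.53%.

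Within gamma-delta T cells, no gene passed between inhibitor-treated and untreated mice: 0 of 9734 tested genes (0%) had an adjusted p under 0.05 with edgeR's quasi-likelihood test, 675 were under 0.05 without adjustment, and the count with DESeq2 was 58. Of the 4 runs that left out 1 mouse, those without inhibitor replicate 1, inhibitor replicate 2 and untreated replicate 1 called 3, 74 and 29 genes, and that without untreated replicate 2 called 0. The type 17 genes lay slightly to the lower side, with 11 of 39 positive and a median log2 fold of −0.35, beside 0.01 over all genes. The list's median was −0.14 with at least 2 Trdc counts per cell, −0.08 without cells holding counts of other cell types and −0.13 without untreated replicate 2. Other lists also lay to the lower side: the median was −0.42 for interferon-stimulated genes (4 of 18 positive), −0.29 for receptor signalling genes (2 of 15) and −0.27 for homing genes (4 of 19). Il17a itself, at 170 and 123 CPM in inhibitor-treated and 204 and 369 CPM in untreated mice, had a log2 fold of −0.91 ± 0.34 (adjusted p = 0.658, edgeR). 5830411N06Rik had a log2 fold of −0.92 ± 0.32 (adjusted p = 0.638, edgeR), and Ifng of −0.17 ± 0.25 (adjusted p = 0.944, edgeR). Klf2, a transcription factor gene of circulating T cells, had 292 and 260 CPM in inhibitor-treated and 487 and 485 CPM in untreated mice (log2 fold −0.76 ± 0.19, adjusted p = 0.469, edgeR). Abi3bp was counted in 12 and 8 cells of inhibitor-treated and 46 and 59 cells of untreated mice (log2 fold −1.89 ± 0.34, adjusted p = 0.394, edgeR).

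Genes of other cell types led the list. The smallest p belonged to Chil3, a gene of neutrophils and macrophages, with 760 and 487 CPM in inhibitor-treated and 61.1 and 61.1 CPM in untreated mice (log2 fold 3.40 ± 0.28, adjusted p = 0.0721, edgeR). It was counted in 5 and 2 cells of inhibitor-treated and 4 and 2 cells of untreated mice, and 1 cell held 72.5%, 97.4%, 69.9% and 93.0% of its counts in these mice. Slc4a1, an erythroid anion exchanger gene, was counted in 2 and 3 cells of inhibitor-treated and 1 and 0 cells of untreated mice. All 13 tested neutrophil markers had positive log2 folds (median 2.65), and their summed level was 63942 and 33440 CPM in inhibitor-treated and 11788 and 3899 CPM in untreated mice. S100a9, a defining neutrophil gene, was counted in 7 and 4 cells of inhibitor-treated and 6 and 2 cells of untreated mice, and smaller values of it than 112 do not occur in the matrix. In the cells with no count of S100a9, S100a8, Lyz2, Cst3, Igkc, C1qa, Cd79a or H2-Aa, chosen with the values in view and called here cells without counts of other cell types, the neutrophil sum was 552 and 587 CPM in inhibitor-treated and 522 and 456 CPM in untreated mice. Those cells were chosen by neutrophil genes, S100a8 and S100a9 among them, so a lower neutrophil sum follows from the choice. All the genes used for it but Cd79a belong to the 44 with small values missing. A 0 for them may thus be a small value removed. In those cells 2 of 6 tested markers were positive (median −0.26). With at least 2 Trdc counts per cell 3 of 13 were (median −0.15). Apoe, a microglia and macrophage gene, had 35.8 and 46.9 CPM in inhibitor-treated and 362 and 893 CPM in untreated mice (log2 fold −3.86 ± 0.47, adjusted p = 0.273, edgeR). With at least 2 Trdc counts per cell, 3 genes were called, Cst3, Apoe and Ctss, all myeloid genes and all lower in inhibitor-treated mice.

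All 23 tested cell cycle genes had positive log2 folds (median 1.52), none passed, and their summed level was 2539 and 3297 CPM in inhibitor-treated and 1513 and 1481 CPM in untreated mice. Rrm2, a subunit of the enzyme that makes deoxyribonucleotides, had 67.2 and 66.8 CPM in inhibitor-treated and 4.75 and 3.67 CPM in untreated mice (log2 fold 4.01 ± 0.51, adjusted p = 0.282, edgeR). It was counted in 3 and 8 cells of inhibitor-treated and 4 and 5 cells of untreated mice. In these mice 1 cell held 83.0%, 31.6%, 37.5% and 33.3% of its counts. Without cells holding counts of other cell types the median over 17 tested genes was 0.95, with 16 positive, and the sum was 1460 and 2689 CPM in inhibitor-treated and 1215 and 1452 CPM in untreated mice. Inhibitor replicate 1 then lay next to untreated replicate 2, and inhibitor replicate 2 stood above the other 3 mice. Those cells still held haemoglobin counts, at 10739.6 CPM in inhibitor replicate 2 (from 1 cell) and 8382 CPM in untreated replicate 1 (from 2 cells), and microglia and macrophage genes at 270.3 to 359 CPM. Without the cells holding haemoglobin, also chosen after the data were seen, the cell cycle sum was 1460 and 2299 CPM in inhibitor-treated and 1182 and 1452 CPM in untreated mice. The haemoglobin genes have no value above 0 smaller than 38 in the matrix, so lower levels would not be seen. Cells with 10 or more cell cycle counts made up 54.4% and 52.9% of gamma-delta T cells in inhibitor-treated and 50.6% and 58.3% in untreated mice. These are not shares of dividing cells. The proliferation gene Mki67 was counted in 10.3%, 15.7%, 9.38% and 10.9% of the cells, and Top2a in 11.8%, 14.3%, 6.25% and 5.71%.

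Whether the inhibitor's effect in gamma-delta T cells differed from that in CD4 T cells was tested with an interaction term in 1 edgeR model over both cell types. None of 12882 tested genes (0%) passed, 859 were under 0.05 without adjustment, and the count with DESeq2 was 30. Leaving out inhibitor replicate 1, inhibitor replicate 2, untreated replicate 1 or untreated replicate 2 gave 185, 46, 41 and 2 calls. For Il17a the difference in log2 fold was −1.01 ± 0.69 (adjusted p = 0.829, edgeR). Total counts in gamma-delta T cells were 699119 and 853859 in inhibitor-treated and 1684946 and 1635885 in untreated mice, so the inhibitor-treated values rest on the fewer counts. Median counts per cell were alike, at 7664 and 8793 in inhibitor-treated and 8223 and 8071 in untreated mice.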

How the data were processed

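Spinal cord CD45+ cells of 4 mice were profiled as 1 hashtag-pooled library. The deposited file is a single table of whole-number counts, genes by cells, not normalized, that the authors had split by hashtag and from which the small values of 44 genes are missing; the genome build is GRCm38 per the submitters' processing notes, about 28678 cells were loaded per the labels' protocols, and the aligner is not given in the sources used here. Whether a count is a read or a molecule is not given either. The matrix holds 28482 genes and 25461 cell columns, of which 3943 carried several hashtags and 1014 of the other 21518 had over 20% mitochondrial counts; both kinds were left out. No cell barcode was shared between mice. A doublet score marked 17 of the 473 gamma-delta T cells, which were kept.

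The members and gene lists were chosen with earlier results of these data known. Counts were summed per mouse and cell type and tested with edgeR 4.0.16 (filterByExpr, TMM, quasi-likelihood test, Benjamini-Hochberg adjustment over all tested genes), with DESeq2 1.42.0 as an alternative, in R 4.3.3. Mouse was a block between cell types. Each SE of a log2 fold was its absolute value divided by the square root of edgeR's F statistic. Named genes were list members. To these came, between cell types, the 12 highest and 8 lowest log2 folds among genes with an adjusted p under 0.05, the same direction in 4 mice and 100 CPM in the higher type, and, for treatment, the 10 of smallest p in each direction. Thinning to 3000 counts is described beside its result. Some genes of the lists are counted but not reported by name here. On simulated counts with 200 genes changed at a log2 fold of 2, the share recovered was 93.5% for treatment, 97.5% against CD4, 97.5% against CD8 T cells and 48% for the interaction. The changed genes were drawn only from genes with higher counts, and the spread between mice was set in advance, not taken from the data. These shares therefore do not give the power to find changes in the real counts. Figures were drawn with matplotlib 3.10.9.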

Additional observations from a re-analysis of the deposited data

How the results depend on the processing

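Between inhibitor-treated and untreated mice, 0 genes were called; DESeq2 called 58, no filter on low counts 23, at least 2 Trdc counts per cell 3, and only cells with type 17 genes 1, and leaving out 1 mouse gave 0 to 74. Against CD4 T cells, the 124 calls were 288 with DESeq2, 422 with no filter (161 higher, 261 lower), 289 with at least 2 Trdc counts, 53 without cells holding Trac, Trbc1 or Trbc2, and 61 to 111 with 1 mouse left out. Against CD8 T cells, the 164 calls were 459, 728 (251 higher, 477 lower), 563 (229 higher, 334 lower) and 42 (7 higher, 35 lower) under the same 4 settings, and 41 to 291 with 1 mouse left out. The interaction called 0, against 30 with DESeq2, 138 with no filter, 1 with at least 2 Trdc counts, 31 without cells holding Trac, Trbc1 or Trbc2, and 2 to 185 with 1 mouse left out. The cause was not tested.

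Chosen after the data were seen, leaving out the 5% of cells with the highest counts gave 200 calls against CD4 and 262 against CD8 T cells. Leaving out cells with counts of other cell types gave 394 (164 higher, 230 lower) and 806 (288 higher, 518 lower).

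The replicate numbers did not pair the mice (correlation of deviations −0.0759 over 9734 genes). With the replicate block, 17 genes were called between inhibitor-treated and untreated mice, and the share of kept cells had a log2 fold of −1.44 with an adjusted p of 0.06 (edgeR).

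The share of kept cells was −0.43 (log2) without cells holding Trac, Trbc1 or Trbc2, −0.78 with the denominator lacking the neutrophil, B-lineage and progenitor gates, and −1.52 to −1.35 with 1 mouse left out. The share of T cells was 0.31 without Trac, Trbc1 or Trbc2, a change of sign, and −0.96 to −0.41 with 1 mouse left out.

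Of the genes reported, 32 of 55 against CD4 and 21 of 71 against CD8 T cells were called with any 1 mouse left out. The sign turned for Chil3 (−1.16 with at least 2 Trdc counts, −2.15 in only cells with type 17 genes), Aldh2 (−0.17) and Pglyrp1 (−0.16, both in only cells with type 17 genes), and Prtn3 (0.65 without the 5% of cells with the highest counts). Without cells holding Trac, Trbc1 or Trbc2, which left 44 gamma-delta T cells and a median over all genes of −0.87 against CD4 and −0.77 against CD8 T cells, it turned for Gzmb (−0.25), Il23r (−0.31), Tmem176a (−0.46) and Actn2 (−0.39) against CD4 T cells. Against CD8 T cells it turned for Zap70 (−1.32), Ccr2 (−0.42), Maf (−0.27), Ckb (−0.39), Cxcr6 (−0.55), Cd69 (−0.25) and Il27ra (−2.77). Gamma-delta T cells had 699119 to 853859 counts in inhibitor-treated and 1635885 to 1684946 in untreated mice; the part of depth in the treatment comparison was not tested.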
